A study of Mus musculus with 6 samples.

Results

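Skeletal muscle turns an action potential into contraction at the triad, where an invagination of the surface membrane called the transverse tubule lies between a pair of cisternae of the sarcoplasmic reticulum, the calcium store of the fibre. The genes described here encode the proteins of that junction and of the calcium store and pumps around it. They are 33 genes of the 20588 in the deposited table, matched by gene symbol, and all 33 were found and passed a filter on low counts. They were chosen by name from textbook roles with the comparison of genotypes already known, in which Sypl2 and Hhatl separated the groups. Their values in that comparison are therefore a description, and the calls of the fit over the whole table are given for reference only, not as an independent test of these genes.

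The libraries were made from polyadenylated RNA of muscle stem cells (satellite cells, the progenitors that rebuild muscle fibres) taken from the hind limbs of mice of the strain C57BL/6NJ, 2 months old. Of the 6 libraries, 3 came from wild-type animals (numbered WT 1 to 3) and 3 from the genotype labelled Pnpla2PKO (PKO 1 to 3), and values are listed below in that order. Pnpla2 encodes adipose triglyceride lipase, which starts the breakdown of stored triglyceride. Cells of both genotypes grew for 7 days and then spent 16 h in medium with 2% horse serum, which starts the formation of myotubes. The genes were thus measured in cultures early in differentiation and not in adult fibres, and the share of myotubes was not measured here. No Cre driver and no deleted exon is named in the sources used here. Whether the 3 libraries of a genotype stem from different mice or dishes is not stated, so their spread may be technical.

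In the triad, the voltage sensor (the calcium channel Cacna1s and its partners) sits in the tubule and opens the release channel Ryr1 in the reticulum by direct contact. Junctophilins tie the membranes together, while triadin, junctin and JP-45 hold calcium-binding calsequestrin near the release channel. Calcium is then pumped back by the SERCA pumps, and emptied stores are refilled through Stim1 and Orai1. Triads are absent from satellite cells and are built during differentiation and after birth.

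Promoter sequence is shown for the pair of genes with the widest separation between the groups, Sypl2 and Hhatl, and for Jph2, the most abundant of the junctional genes whose groups did not overlap. The sequences are from RefSeq on GRCm38.p6, are written 5′ to 3′ on the strand of the gene, which is the minus strand for all 3, and stop before the first annotated exon. They lie at chr3:108226649-108226849 (Sypl2), chr9:121792508-121792757 (Hhatl, upstream start) and chr2:163397994-163398243 (Jph2, upstream start). Capitals mark E-boxes, the letters CANNTG. Myogenic factors such as Myod1 and Myog are known to bind some forms of the E-box, so a marked stretch need not be a site for them.
Sypl2: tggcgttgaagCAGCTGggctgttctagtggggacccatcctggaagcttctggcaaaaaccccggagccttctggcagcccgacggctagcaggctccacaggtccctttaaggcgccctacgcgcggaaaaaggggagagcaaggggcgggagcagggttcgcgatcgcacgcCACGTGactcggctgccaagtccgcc
Hhatl: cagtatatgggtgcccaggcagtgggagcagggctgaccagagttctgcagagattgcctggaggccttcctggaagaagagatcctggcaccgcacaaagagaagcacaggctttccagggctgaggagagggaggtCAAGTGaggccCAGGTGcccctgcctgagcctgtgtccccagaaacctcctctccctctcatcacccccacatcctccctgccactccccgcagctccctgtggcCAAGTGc
Jph2: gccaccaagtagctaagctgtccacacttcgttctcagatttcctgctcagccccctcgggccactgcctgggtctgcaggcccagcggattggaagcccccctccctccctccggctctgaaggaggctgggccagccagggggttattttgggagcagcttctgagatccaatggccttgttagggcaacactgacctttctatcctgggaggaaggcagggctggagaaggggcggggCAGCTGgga

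RefSeq promoters of 250 bases before the start were matched for 20 of the 33 genes, with 26 starts among them. An E-box (CANNTG, which reads the same on both strands) was found in 18 of the 26, or 69.2%, beside 66.2% of all 32851 promoters searched. The form CAGCTG was found in 9 of the 26 (34.6%, all promoters 13%), the form CAGGTG, with its reverse CACCTG, in 3 (11.5%, all promoters 17.2%), and the form CACGTG in 3 (11.5%, all promoters 6.02%). These forms are subsets of CANNTG and are counted within it. Such matches describe letters in a window, several starts belong to the same gene, and no binding was measured. Windows of a gene can overlap, so the same CAGCTG of Jph2 and the same CACGTG of Mtm1 were counted again at another start.

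Total counts ran from 15580176 to 18839151 per library. Pnpla2 was at 21.1, 38.5 and 33.7 CPM (counts scaled to library size with TMM factors) in WT and at 8.47, 16.0 and 15.5 CPM in PKO, so the groups did not overlap (exact two-sided permutation test, p = 0.1, the smallest that 3 against 3 allows). The myogenic factors were abundant in all 6 libraries (Myog 2239 to 2798 CPM), while the stem cell gene Pax7 was at 41.2 to 114 CPM. The 10 myogenic genes listed summed to 11354 to 12541 CPM in WT, 11765 CPM in PKO 1, 8727 CPM in PKO 2 and 9687 CPM in PKO 3. All 10 had a log2 fold change below 0 (median -0.24), beside 51.7% of all genes tested. In 4 of them all PKO values were below all WT values (9.7% of all genes). WT 1 stood apart from WT 2 and WT 3, with a chi-square per degree of freedom of 61.9 and 58.0 against 6.77 between WT 2 and WT 3. This measure sets squared differences against the variance of counting. The PKO libraries all differed from one another, with values of 81.8 between PKO 1 and PKO 2, 66.3 between PKO 1 and PKO 3 and 57.7 between PKO 2 and PKO 3. PKO 2 and PKO 3 held far more RNA of stromal marker genes, whose summed level was 318 to 442 CPM in WT, 580 CPM in PKO 1, 2699 CPM in PKO 2 and 1792 CPM in PKO 3, led by Col3a1 and Col1a2. Endothelial markers summed to 2.96 to 4.39 CPM in WT and 7.14 to 12.8 CPM in PKO, and leukocyte markers to 2.30 to 3.83 and 8.79 to 13.8 CPM, with Adgre1 and C1qa not in the table. Cardiac markers stayed at 1.31 to 2.30 CPM in all libraries, with Nppa not in the table. Smooth muscle markers summed to 238 to 336 CPM in WT and 293 to 369 CPM in PKO. Of the 4 tested, 1 had a log2 fold change below 0, and the median was 1.58. Schwann cell markers summed to 3.78 to 12.8 and 6.50 to 11.1 CPM. The adipocyte markers Adipoq, Plin1, Cidec and Cfd were absent. The rest summed to 0.109 to 0.354 CPM in WT and 0.320, 2.62 and 5.39 CPM in PKO. The summed level of 24 myotube genes was 47132, 35437 and 36538 CPM in WT and 35719, 24851 and 23567 CPM in PKO. The part of these differences in the values below was not tested, and fewer myotubes cannot be told apart from less RNA per myotube in such bulk samples.

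Levels of different genes were compared per transcript length, as the FPKM values deposited by the authors (mean ± SD over all 6 libraries). Bin1, which encodes the amphiphysin that bends membrane into tubules, was the highest at 538 ± 111 FPKM. It was followed by Casq2 (230.4 ± 65.5), a calsequestrin, and by the SERCA pumps Atp2a2 (222 ± 27.7) and Atp2a1 (215 ± 87.4), 3 genes whose ranges overlapped widely. Next came Srl (sarcalumenin) at 178 ± 56.1, Jph2 (junctophilin 2) at 158 ± 30.9 and Tmem38a (the counter-ion channel TRIC-A) at 149 ± 24.5, which also overlapped one another. Ryr1 itself stood at 56.0 ± 14.2 and Cacna1s at 26.9 ± 7.86 FPKM. The lowest were Ryr3 (0.348 ± 0.225), the chloride channel Clcn1 (0.422 ± 0.233), Itpr1 (2.19 ± 0.698), Slc8a3 (2.49 ± 1.48), Mtm1 (2.65 ± 0.435) and Sypl2 (3.23 ± 1.65). Levels differed widely within some roles, from Bin1 to Mtm1 among the tubule membrane genes and from Atp2a2 to Slc8a3 among the pumps and exchangers.

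**Figure D1:**
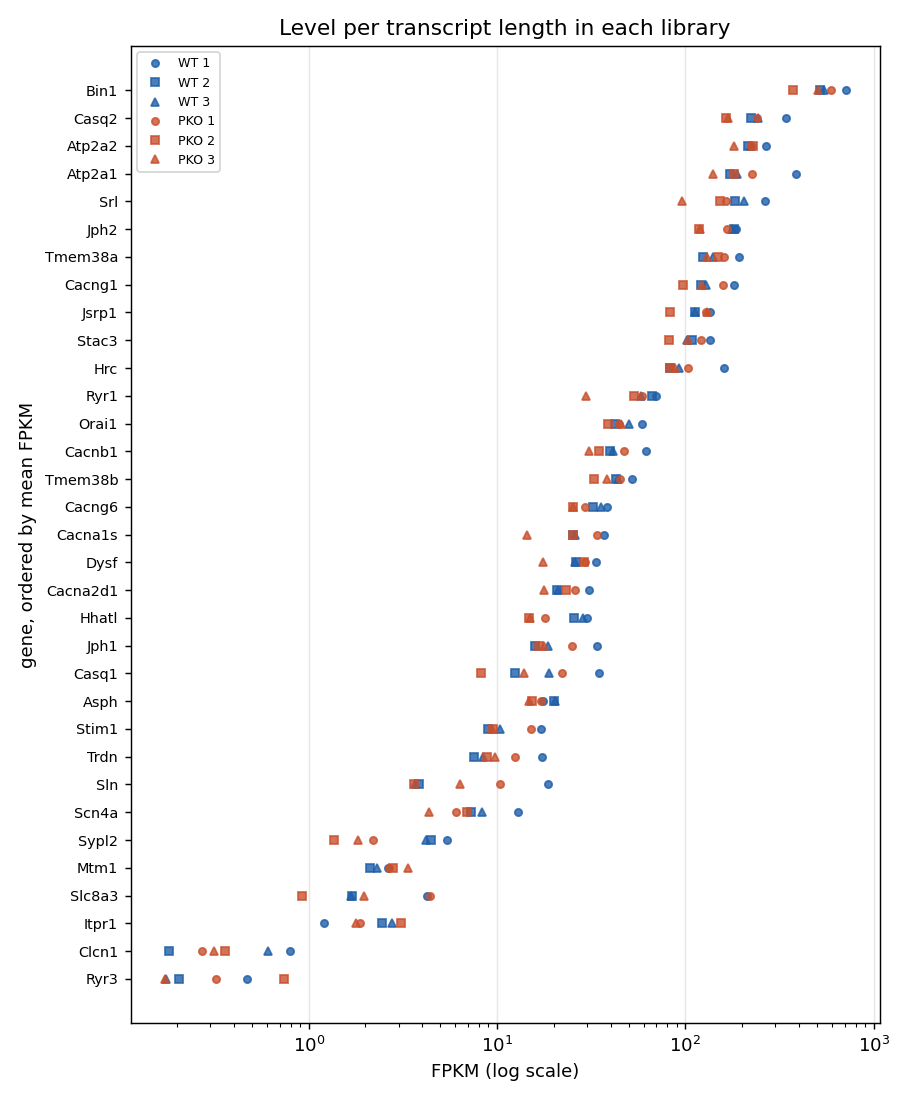
Level of each of the 33 genes per transcript length in FPKM (log scale), ordered by the mean over the 6 libraries, with a point per library. Bin1 is highest at a mean of 538 and Ryr3 lowest at 0.348, and for most genes the points of the libraries lie close together beside the distance between genes.

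Several roles are filled by pairs of related genes, and the shares within each pair overlapped between genotypes. Of the combined FPKM of Ryr1 and Ryr3, Ryr3 held 0.676%, 0.305% and 0.299% in WT and 0.547%, 1.37% and 0.576% in PKO (0.426 ± 0.216% and 0.831 ± 0.466%, SD, n = 3). Ryr1, the skeletal form, was thus the main release channel in every library. Of the SERCA pair, Atp2a1, the fast-fibre adult pump, held 59.1%, 44.8% and 45.9% in WT and 50.3%, 44.2% and 43.6% in PKO, a difference of -3.87 percentage points that became 0.71 without WT 1. Casq2, the cardiac and slow-fibre calsequestrin, held 90.8% to 95.3% of the calsequestrin pair in all 6 libraries. Jph2 held 84.5%, 92.0% and 90.5% of the junctophilin pair in WT and 87.0%, 87.7% and 87.0% in PKO. Tmem38b held 21.4%, 25.6% and 23.8% of the TRIC pair in WT and 22.0%, 17.9% and 22.7% in PKO. The WT and PKO ranges overlapped for all 5 pairs.

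Across the genotypes, 30 of the 33 genes had a log2 fold change (PKO over WT) below 0, beside 51.7% of all 14025 genes tested. Their median was -0.32, against -0.02 for all genes. With edgeR's quasi-likelihood test across the whole table, 0 of the 33 genes were called at an adjusted p under 0.05, as was 0% of all genes. At an unadjusted p under 0.05, 8 of the 33 were lower (6.35% of all genes) and 0 were higher (10.2% of all genes). DESeq2 called 2 of the 33 lower, Sypl2 and Hhatl (1.12% of all genes were called lower), and 0 higher (4.76% of all genes). In 8 genes all PKO values were below all WT values (9.7% of all genes), namely Scn4a, Cacng6, Ryr1, Jph2, Asph, Sypl2, Hhatl and Srl, and in 0 did every PKO library lie above (11.8% of all genes). Since the genes were chosen with this contrast known, nothing is read from these counts against their background.

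The median was below 0 for most roles, and the libraries contributed to it unequally. Median log2 fold changes were -0.79 for the 2 sarcolemmal channels, -0.28 for the 6 voltage sensor genes, -0.35 for the 7 junctional genes, -0.45 for the 6 store and buffer genes, -0.31 for the 4 pump and exchanger genes, -0.22 for the 2 store entry genes and -0.24 for the 3 membrane genes, and 0.02 for the 3 release channels. Relative to each gene's WT mean, the median of the 33 was 0.36, -0.22 and -0.13 in WT and -0.02, -0.43 and -0.46 in PKO (log2 CPM). PKO 1 therefore lay above WT 2 and WT 3 on this measure. WT 1 was the highest library for 28 of the 33 genes (84.8%; 17.8% of all genes), and the lowest was PKO 2 for 14 (42.4%; 21.6% of all genes) and PKO 3 for 13 (39.4%; 21.7% of all genes). PKO 1 was below the whole WT range for 8 genes (23.2% of all genes), PKO 2 for 21 (32.3% of all genes) and PKO 3 for 22 (31.7% of all genes). Without WT 1 the median was -0.11, 24 of the 33 genes were below 0, and 8 genes changed sign. The role medians were then -0.42 for the junctional genes, -0.44 for the sarcolemmal channels, -0.27 for the release channels, -0.18 for the store genes and -0.11 for both the voltage sensor and the membrane genes, but 0.22 for the pumps and exchanger and 0.005 for store entry. Without PKO 2 the release channels also had a median below 0, at -0.28. The junctional medians, with all libraries and without WT 1, include Sypl2 and Hhatl, both known beforehand to separate the groups.

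**Figure D2:**
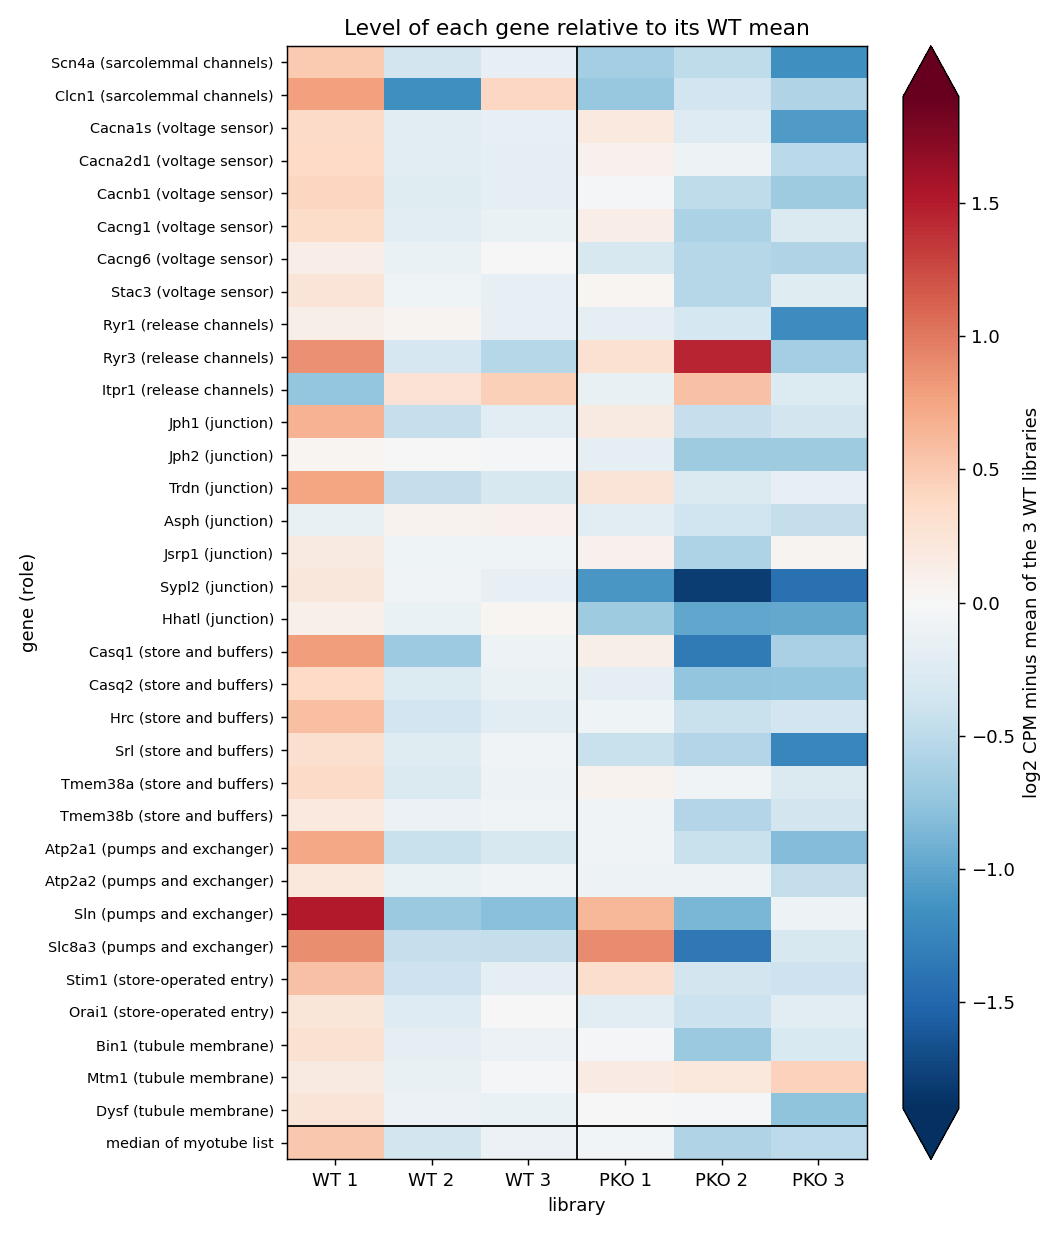
Level of each of the 33 genes in each library as log2 CPM minus the mean of the 3 WT libraries for that gene (colour), with genes in rows grouped by role, libraries in columns and the median of the myotube genes in the last row. WT 1 is above the WT mean for most genes (median 0.36), and PKO 2 and PKO 3 are below it (medians -0.43 and -0.46).

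**Figure D3:**
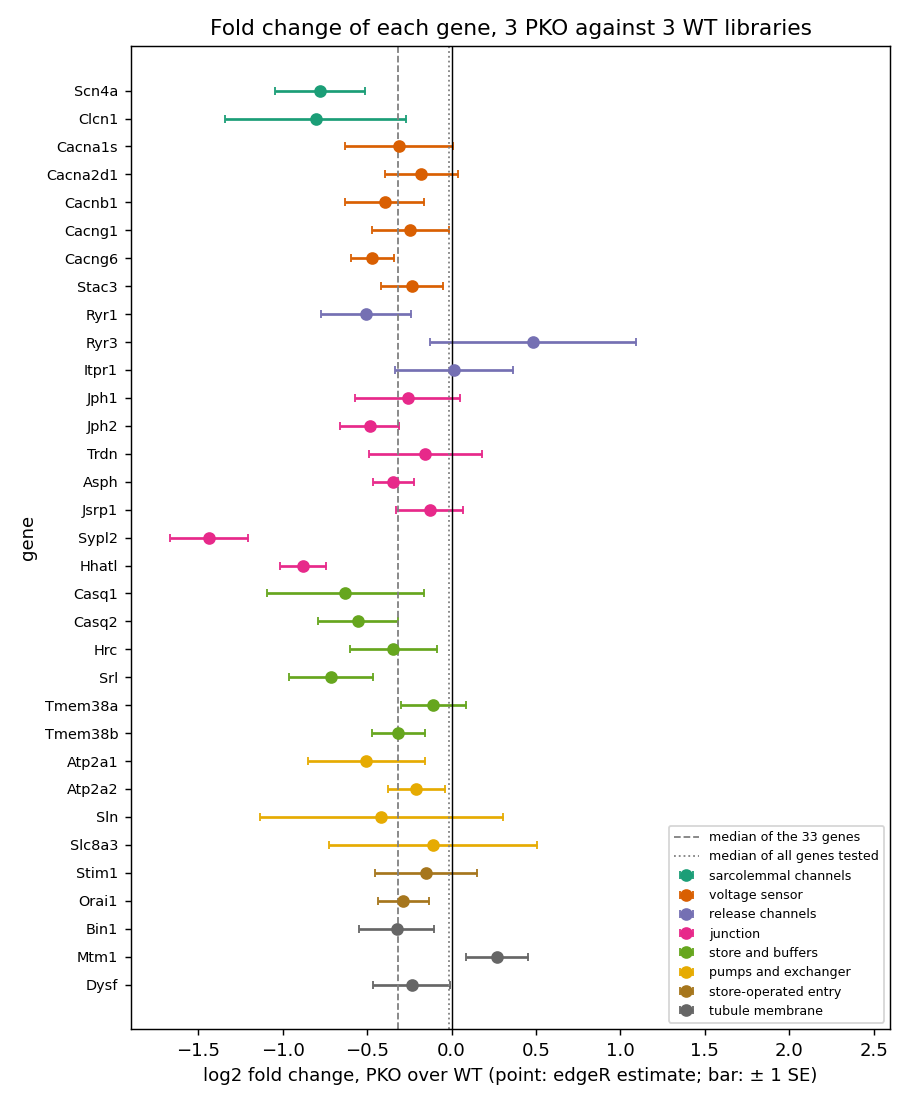
Log2 fold change of each gene, PKO over WT, with points for the edgeR estimate and bars for 1 standard error, coloured by role; vertical lines mark 0 and the medians of the 33 genes (-0.32) and of all genes tested (-0.02). Sypl2 lies farthest to the left at -1.44 and Ryr3 farthest to the right at 0.48.

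The channels of the surface and tubule membrane carry the action potential. Scn4a, the skeletal muscle sodium channel, was at 87.7, 48.9 and 55.9 CPM in WT and at 39.9, 44.6 and 27.8 CPM in PKO. The groups did not overlap, although WT 2 and PKO 2 were close, and the log2 fold change was -0.78 ± 0.27 (SE). It was -0.49 without WT 1 and -0.60 without PKO 3. Clcn1, the chloride channel that stabilises the resting membrane of adult fibres, had few reads, with 49, 10 and 40 counts in WT and 18, 22 and 21 in PKO, which overlapped (-0.81 ± 0.54).

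The voltage sensor genes all had negative fold changes, with the groups apart for Cacng6 alone. Cacng6, a gamma subunit of the calcium channel, was at 77.5, 65.3 and 71.7 CPM in WT and at 57.6, 49.1 and 48.1 CPM in PKO. Libraries within each genotype were close, and the log2 fold change of -0.47 ± 0.13 ran from -0.55 to -0.41 under every alternative processing run. Cacna1s, the pore and voltage-sensing subunit, was at 236, 160.4 and 165 CPM in WT and at 210.1, 156 and 87.3 CPM in PKO. Its groups overlapped, its lowest value was that of PKO 3, and the log2 fold change of -0.31 ± 0.32 was -0.03 without that library. Of its exonic bases, 20% overlap Gm37759 on the opposite strand. The accessory subunits Cacna2d1 (-0.18 ± 0.22), Cacnb1 (-0.40 ± 0.24) and Cacng1 (-0.24 ± 0.23) also overlapped between groups, and without WT 1 their values were 0.03, -0.17 and -0.05. The groups overlapped as well for Stac3 (-0.23 ± 0.19), the adaptor that the channel needs to couple to Ryr1, at 187 to 247 CPM in WT and 143 to 215 CPM in PKO.

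Among the release channels, Ryr1 was at 1090.3, 1046 and 910.4 CPM in WT and at 898, 806 and 441 CPM in PKO. The groups did not overlap, but the nearest libraries, WT 3 and PKO 1, were almost level and PKO 3 was far below the rest. The log2 fold change was -0.51 ± 0.27, and -0.25 without PKO 3. Ryr3, a second ryanodine receptor found in young and specialised muscle, was at 7.44, 3.21 and 2.74 CPM in WT and at 4.96, 11.2 and 2.57 CPM in PKO, where PKO 2 alone was high (0.48 ± 0.61, and -0.24 without PKO 2). Itpr1, the inositol trisphosphate receptor, was at 12.2 to 27.7 CPM in WT and 16.9 to 29.9 CPM in PKO (0.02 ± 0.35), the only gene of the 33 that was lowest in WT 1.

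The junctional genes include Sypl2 and Hhatl, the pair known beforehand to separate the groups. The other junctional genes had log2 fold changes of -0.49 (Jph2) to -0.13 (Jsrp1). Sypl2 encodes mitsugumin 29, a synaptophysin relative of the triad membrane. It lies on the minus strand of chromosome 3 (108211472 to 108226648, GRCm38) and was counted with 383, 283 and 318 reads in WT and with 168, 96 and 140 reads in PKO. These counts correspond to 22.6, 18.5 and 17.4 CPM in WT and to 8.95, 5.46 and 7.18 CPM in PKO. Every PKO library, PKO 1 included, was well below the lowest WT library, and the PKO mean of 7.20 ± 1.75 CPM was 36.9% of the WT mean of 19.5 ± 2.75 CPM (SD, n = 3). The log2 fold change was -1.44 ± 0.23 and ran from -1.62 to -1.27 as libraries were left out. Sypl2 is also among the least abundant of the 33 genes per length, at 4.17 to 5.41 FPKM in WT and 1.36 to 2.20 FPKM in PKO.

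Hhatl encodes mitsugumin 56, a protein of the sarcoplasmic reticulum that resembles the acyltransferase Hhat. It lies on the minus strand of chromosome 9 (121784016 to 121792507) and was counted with 968, 747 and 1000 reads in WT and with 625, 474 and 528 reads in PKO. The levels were 57.2, 48.9 and 54.7 CPM in WT and 33.3, 27.0 and 27.1 CPM in PKO. The groups were again well apart in every library, with a PKO mean of 29.1 ± 3.62 CPM, 54.3% of the WT mean of 53.6 ± 4.24 CPM. The log2 fold change of -0.88 ± 0.14 ran from -0.98 to -0.82 as libraries were left out. The promoters of these genes printed above differ in their E-boxes: Sypl2 has CAGCTG and CACGTG, at 239 and 75 bases before the RefSeq start, while Hhatl has CAGGTG and CAAGTG.

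Jph2, the junctophilin that ties the tubule to the reticulum, was at 799.5, 779 and 761 CPM in WT and at 695, 488 and 488 CPM in PKO. The WT libraries were close to one another, and PKO 1 lay between them and the other PKO libraries. The log2 fold change was -0.49 ± 0.18. Its relative Jph1 overlapped between groups (-0.26 ± 0.31), with WT 1 at 167 CPM and all other libraries at 77.7 to 119 CPM.

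Asph, whose transcripts encode an aspartate hydroxylase and, by alternative use of exons, the calsequestrin anchor junctin, was at 119, 137 and 139 CPM in WT and at 114, 101 and 95.9 CPM in PKO. The groups were apart by little, between WT 1 and PKO 1, and the log2 fold change was -0.35 ± 0.12. Counts per gene do not separate these products, and 14.3% of the exonic bases of Asph overlap Clvs1 on the opposite strand. Trdn (triadin, -0.16 ± 0.33) and Jsrp1 (JP-45, -0.13 ± 0.20) overlapped between groups, with Trdn at 34.7 to 80.4 CPM in WT and 39.3 to 56.2 CPM in PKO.

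**Figure D4:**
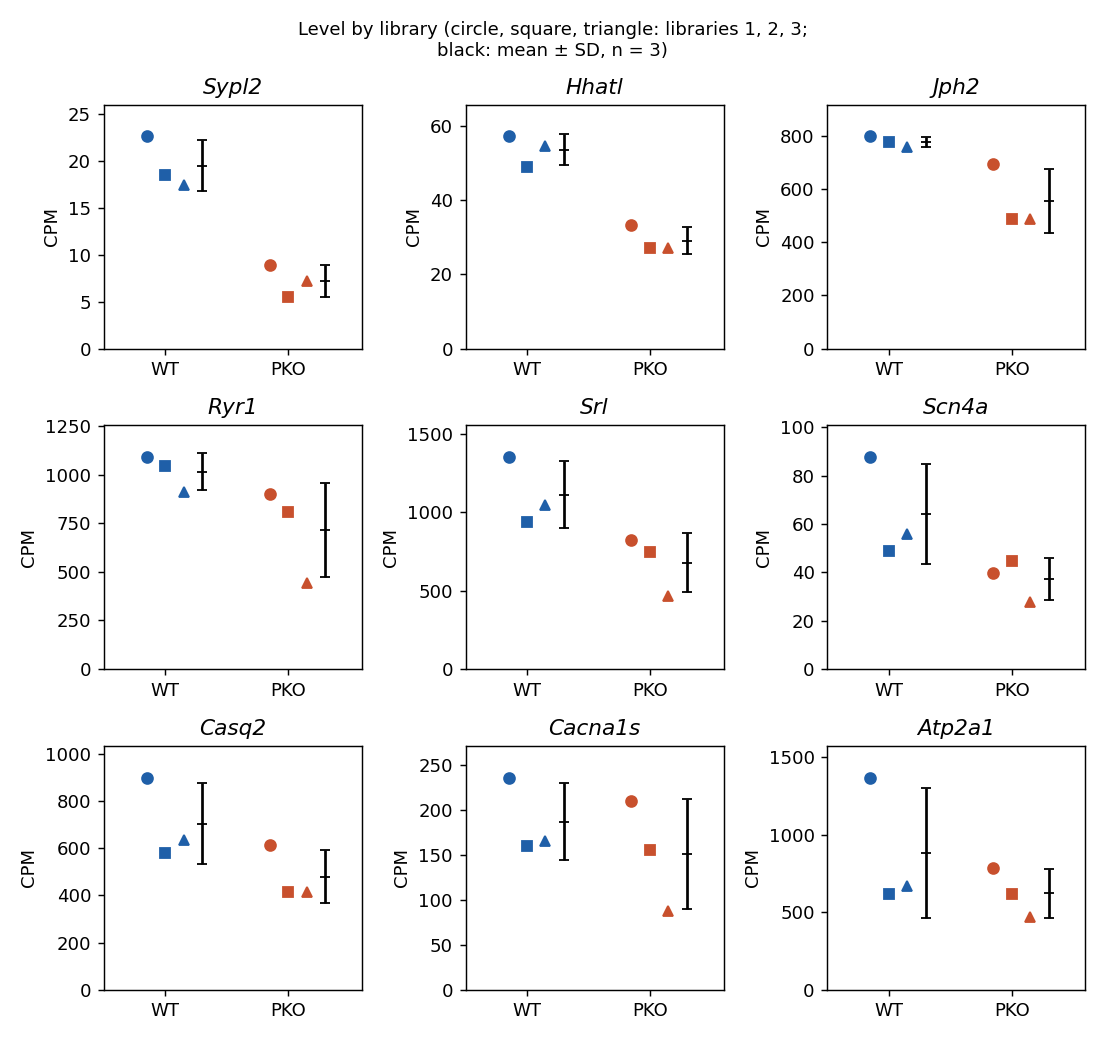
Level in CPM (vertical axes starting at 0) of the genes named above the panels in each library, with circles, squares and triangles for libraries 1, 2 and 3 of a genotype and black marks for the mean ± SD (n = 3). For Sypl2 the PKO libraries lie between 5.46 and 8.95 CPM, all below the WT libraries at 17.4 to 22.6 CPM.

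In the calcium store, Srl had the only groups that did not overlap. Srl encodes sarcalumenin, a calcium-binding glycoprotein of the longitudinal reticulum, and was at 1350.3, 936 and 1047 CPM in WT and at 822, 745 and 464 CPM in PKO. WT 1 was the highest and PKO 3 the lowest, and the log2 fold change of -0.71 ± 0.25 was -0.56 without WT 1 and -0.50 without PKO 3. Casq2 was at 899, 581 and 634 CPM in WT and at 612, 412 and 416 CPM in PKO. Only PKO 1 reached into the WT range, and the log2 fold change was -0.55 ± 0.24. Casq1, the fast-fibre calsequestrin, was far less abundant, at 65.8, 23.5 and 35.4 CPM in WT and 40.9, 14.9 and 24.7 CPM in PKO (-0.63 ± 0.47, and -0.14 without WT 1). The groups overlapped for Hrc, the histidine-rich calcium-binding protein (-0.35 ± 0.26, and -0.0035 without WT 1), and for the TRIC channels Tmem38a (-0.11 ± 0.19) and Tmem38b (-0.32 ± 0.16).

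The pumps and exchangers overlapped between genotypes. Atp2a1 was at 1368, 614 and 670.3 CPM in WT and at 785, 615 and 468 CPM in PKO, so that WT 1 alone stood high and WT 2 and PKO 2 were level (-0.51 ± 0.35, and -0.05 without WT 1). Of the exonic bases of Atp2a1, 21.9% overlap Rabep2 on the opposite strand, and how reads over them were counted is not known. Atp2a2, the slow-fibre and general SERCA pump, was at 979 to 1225 CPM in WT and 782 to 1003 CPM in PKO (-0.21 ± 0.17). Sln, which encodes the SERCA inhibitor sarcolipin, had 167, 31 and 35 counts in WT and 100, 32 and 62 in PKO, with the first library of each genotype the highest (-0.42 ± 0.72, and 0.80 without WT 1). Slc8a3, a sodium-calcium exchanger, was at 21.4, 8.51 and 8.43 CPM in WT and at 21.7, 4.44 and 9.34 CPM in PKO, again highest in the first library of each (-0.11 ± 0.61).

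For store-operated entry, Stim1, the calcium sensor of the reticulum, was at 63.1, 32.8 and 38.2 CPM in WT and at 54.4, 33.6 and 32.6 CPM in PKO (-0.15 ± 0.30). Orai1, the channel that Stim1 opens, was at 112, 80.4 and 95.3 CPM in WT and at 82.6, 71.5 and 82.0 CPM in PKO (-0.28 ± 0.15). Both overlapped between groups.

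Of the genes that shape and repair the tubule membrane, Bin1 was at 1776, 1289.8 and 1355 CPM in WT and at 1442, 892 and 1192 CPM in PKO, an overlap through PKO 1 (-0.33 ± 0.22). Dysf, which encodes the membrane repair protein dysferlin, overlapped as well (-0.24 ± 0.23, and -0.03 without PKO 3). Mtm1, the phosphoinositide phosphatase myotubularin, had a positive log2 fold change of 0.27 ± 0.18, with 11.0, 8.91 and 9.63 CPM in WT and 10.9, 11.3 and 13.4 CPM in PKO.

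The contractile genes also differed between libraries of a genotype, and each gene was also set against the median of 23 myotube genes of the same library (log2 CPM relative to the WT mean). That median was 0.52, -0.35 and -0.11 in WT and -0.05, -0.56 and -0.50 in PKO. On this scale the 33 genes had a median PKO minus WT difference of 0.10, and 12 of them lay below 0. Sypl2 was the only one whose PKO libraries all lay below its WT libraries (0.214% of all genes). Its values were -0.30, 0.29 and -0.05 in WT and -1.06, -1.24 and -0.92 in PKO. Sypl2 was known beforehand to separate the groups in these counts, so its place here is a description and not independent support. Over the whole table this scale put 30 genes wholly below and 2559 wholly above. For Hhatl the values were -0.42, 0.23 and 0.14 in WT and -0.64, -0.42 and -0.48 in PKO, where WT 1 touched the PKO range. Trdn, Tmem38a and Stim1 had all PKO values above all WT values (18.2% of all genes), with differences of 0.32, 0.30 and 0.25. The other 29 genes overlapped on this scale, among them Ryr1, Jph2, Srl and Scn4a.

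Levels in PKO 3 were related to gene length. For all genes at 10 CPM or more, the median level in PKO 3 relative to WT was 0.25 (log2) for the 1055 genes under 1500 bases, 0.08, -0.07 and -0.28 for the next classes up to 8000 bases, and -0.55 for the 524 genes of 8000 bases and over. In the other libraries these medians stayed between -0.15 and 0.06. The 33 genes showed the same order in PKO 3 for genes of moderate length, with medians of -0.36 for the 10 genes from 1500 to under 3000 bases, -0.42 for the 10 from there to under 5000 bases, -0.92 for the 6 from there to under 8000 bases and -0.73 for the 2 above that (Spearman rho -0.36 across 30 genes of the same library, which are not independent). For the same 30 genes rho was 0.49 in PKO 2, in the opposite direction, and between -0.12 and 0.17 in PKO 1 and the WT libraries. Ryr1, at 15362 bases, and Srl, at 5000 bases, are among the long genes. With a length trend of each library taken into the edgeR fit, the log2 fold changes were -0.27 for Ryr1, -0.65 for Srl, -0.69 for Scn4a, -0.43 for Jph2, -1.38 for Sypl2 and -0.89 for Hhatl.

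**Figure D5:**
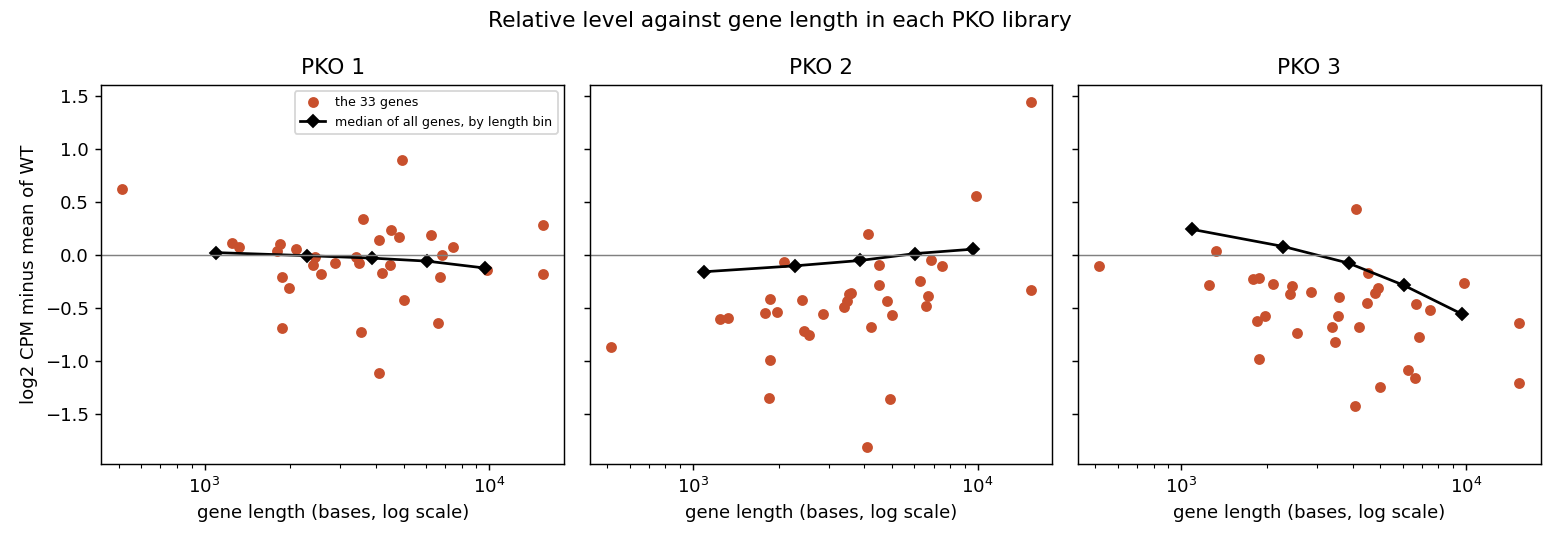
Level relative to the WT mean (log2 CPM) against gene length in bases (log scale) in each PKO library, with points for the 33 genes and a black line for the median of all genes at 10 CPM or more by length class. In PKO 3 the line runs from 0.25 to -0.55, while in PKO 1 and PKO 2 it stays between -0.15 and 0.06.

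Other genes of the pathway were taken from a list of 82, of which 80 were in the table (Strit1 and Trpc4 were not found there) and 75 passed the filter on low counts. Of these, 36 had a log2 fold change below 0 and 39 above, with a median of 0.01 and a range of -1.18 to 1.64. With edgeR 0 of them were called at an adjusted p under 0.05 (0% of all genes), while at an unadjusted p under 0.05 there were 8 lower and 5 higher (6.35% and 10.2% of all genes). The PKO values were all below the WT values in 8 of them and all above in 7 (9.7% and 11.8% of all genes). DESeq2 called 0 lower and 1 higher, Cacng7, which encodes a gamma subunit of the transmembrane AMPA receptor regulatory group. Cacng7 was at 10.2, 7.53 and 7.72 CPM in WT and at 15.7, 24.8 and 27.8 CPM in PKO. The groups did not overlap, and the log2 fold change was 1.42 ± 0.26 (adjusted p = 0.179 with edgeR and 0.000201 with DESeq2). Ryr2, the cardiac release channel, did not pass the filter, with 0 counts in every WT library and 5, 0 and 4 in PKO.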

How the data were processed

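The 33 genes and the other gene lists were chosen with earlier results of these data known. Per the series text and the submitters' processing notes, TopHat2 mapped the paired reads to GRCm38 (mm10) and HTSeq 0.6.1 made the gene counts. Annotation version and strand setting: not given in the sources used here. Exon overlaps were taken from a GENCODE annotation of GRCm38, which may differ from the authors' annotation. The deposited read counts entered every test. The authors computed FPKM from those counts and a gene length, and these gave levels per length. The authors also deposited a normalized signal (counts divided by a factor per library), and log2 fold changes and p-values that they computed with DESeq2 or edgeR, per the series text; none of these was used. Groups came from sample titles. Counts were fitted with edgeR 4.0.16 (R 4.3.3, filterByExpr, 14025 genes, TMM, robust quasi-likelihood, genotype as the only term, Benjamini-Hochberg 0.05). The fit was also run on simulated counts with the same dispersion for all genes and no outlying library. That setting differs from these libraries, so it does not show the power or error rate here. SE comes from the fold change and F statistic. Alternatives were RLE, upper-quartile and library-size scaling, no filter or a mean of 1 CPM, DESeq2 1.42.0, limma-voom 3.58.1, a replicate block, leave-outs and, chosen after seeing the data, gene-length offsets. Log2 CPM used a prior count of 2. Intervals were not computed, and depth limits the genes with few counts (Clcn1, Ryr3 and Sln) most. Named were all 33 genes, other pathway genes called by either tool, the 2 leading markers of a list and Pnpla2; Pax7, Ryr2 and the genes absent from the table were named besides.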

Additional observations from a re-analysis of the deposited data

How the results depend on the processing

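The count of genes called over the whole table was 0 with edgeR, RLE, upper-quartile or library-size scaling, either filter, limma-voom and gene-length offsets. It was 824 with DESeq2 and 1 with the replicate block. Leaving out libraries gave 0 to 2266, with 1000 without WT 1, 737 without PKO 1, 2266 without both, and 0 for each of the other 4 libraries. Sypl2 and Hhatl were called in those 3 fits, and Jph2 and Asph also without both WT 1 and PKO 1. Over the whole table, 483 of 14557 genes were called lower without WT 1, 78 of 14504 without PKO 1 and 805 of 14296 without both. The 33 genes were chosen with this contrast known, so nothing is read from these calls. The cause of the changes in number was not tested. The median of the 33 genes ran from -0.47 (without PKO 1) to -0.11 (without WT 1), and that of the other pathway genes from -0.05 to 0.09. Signs changed for Cacna2d1, Itpr1, Jph1, Trdn, Tmem38a, Sln, Slc8a3 and Stim1 without WT 1, for Ryr3, Itpr1, Jsrp1 and Slc8a3 without PKO 2, for Slc8a3 without PKO 3, and for Itpr1, Trdn, Tmem38a and Sln without both WT 1 and PKO 1. Of 528 recomputed fold changes of the 33 genes, 526 moved by less than the gene's SD between libraries of a genotype (log2 CPM). The other 2 moved further (Sln to 0.80 without WT 1 and Asph to -0.49 without WT 1 and PKO 1). That SD is not the SE given above, and some of the 526 moved by more than their SE. Trdn, for example, went from -0.16 ± 0.33 to 0.32 without WT 1. Pnpla2 in PKO ran from 36.9% to 51.0% of WT, and the Casq2 share turned to -0.71 without WT 1 and -0.82 percentage points without PKO 2. Same-numbered libraries deviated with correlations of 0.10, -0.02 and 0.13. The medians of the 33 genes and of the myotube genes were nevertheless highest in library 1 of both genotypes. These values do not settle whether the numbers mark pairs. The main fit did not treat them as pairs, and the block gave a median of the 33 genes of -0.29.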
